A study of Mus musculus with 6 samples.

Results

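Glutathione S-transferases are the enzymes that couple glutathione to reactive compounds, and 10 of their genes were examined here in CD4+ T cells, the T lymphocytes that include helper and regulatory cells. The members were chosen by name: every probe set of the array whose annotation gives exactly 1 of the genes Gsta4, Gstk1, Gstm1, Gstm5, Gsto1, Gstp1, Gstt1, Gstt2, Mgst1 and Mgst2. Each gene had 1 such probe set, so the members were 10 of 34760 probe sets and 10 of the 19937 genes named singly on the array. The cells came from CBS-KO mice, which lack cystathionine beta-synthase, and from wild-type (WT) mice. Both groups are given as C57BL/6, the mice were 6 weeks old, and each group held 3 arrays labelled as biological replicates. The type of Cbs allele, whether the WT mice were littermates, how the T cells were isolated and whether animals were pooled are details that the sources used here do not give. The p-values therefore measure the spread between these arrays.

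Glutathione is a tripeptide of glutamate, cysteine and glycine, and cystathionine beta-synthase starts the route by which homocysteine supplies the sulfur of cysteine. Cytosolic transferases are grouped by sequence into classes such as alpha, mu, pi, theta and omega, the kappa enzyme lies in mitochondria and peroxisomes, and the microsomal enzymes sit in membranes and belong to a separate family shared with leukotriene and prostaglandin enzymes. Conjugates leave the cell through transporters and are processed further to mercapturates. Many of the genes respond to NRF2, the transcription factor that is released from KEAP1 by electrophiles.

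The values are log2(intensity + 16), and every difference is CBS-KO minus WT on that scale, which understates the change of dim probe sets. The array medians lay between 7.37 and 7.55. Signal of the Y-linked genes Eif2s3y, Kdm5d and Uty was present on 2 of 3 CBS-KO arrays, CBS-KO 1 and 2, and on 0 of 3 WT arrays, so genotype and sex were partly confounded. The Cbs probe set read 7.25, 7.63 and 7.35 on the CBS-KO arrays against 7.37, 7.48 and 7.19 on the WT arrays (difference 0.06, SE 0.14, limma adjusted p = 0.801), and as no source used here says which part of the gene it covers, it cannot serve as a check of the labels. Where 4.45% of all 12776 tested genes were called lower, 5 of the 11 tested CD4 T cell markers were, and all 11 had negative differences. Those called were Trat1, Cd3d, Cd3g, Cd2 and Cd28. Cd4 itself had separate groups but was not called (-0.57, limma adjusted p = 0.0511). Intensities of the CD4 T cell markers summed to between 33339 and 52918 on the CBS-KO arrays, against 62549.8 to 69304 on the WT arrays, so the markers of the labelled cell type were present throughout. At a limma adjusted p under 0.05, 6.62% of all tested genes were called higher. Among markers of other cells, 9 of 9 tested erythroid, 12 of 14 neutrophil, 10 of 13 monocyte and macrophage, and 3 of 7 mast cell and basophil genes were. Some of the tested markers passed the filter only through their CBS-KO arrays, so these counts are descriptions. In the erythroid list this was Epb42, in the neutrophil list S100a8, S100a9, Mmp8 and Cxcr2, and in the monocyte and macrophage list Cd14. In the mast cell and basophil list it was Ms4a2 and Mcpt8, which were not called. The called genes of that list were Hdc, Kit and Gata2. Prss34 and Cpa3 were not called either, and for Mcpt8, Prss34 and Cpa3 the groups overlapped. In a bulk sample, fewer cells of a type and less RNA per cell cannot be told apart.

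Of the 10 transferase genes, 4 rose in CBS-KO cells, Gstm5, Gstm1, Gsto1 and Gstp1, and 1 fell, Mgst2. Mgst1 stood clearly higher too, but its mean of 6.78 lay below the filter level of 6.99 that a probe set had to exceed to be tested. Gsta4, Gstt1, Gstk1 and Gstt2 did not pass an adjusted p of 0.05. The 9 tested members thus had 5 calls, where 9.57% of all tested probe sets were called in either direction. They had 4 calls upward, where 5.09% of all 20856 tested probe sets were called higher, and 1 call downward, where 4.47% were called lower (limma, Benjamini-Hochberg adjusted over all tested probe sets). Gstt1 passed the filter only through its CBS-KO arrays, so counts over tested members are descriptions. The CBS-KO arrays lay all above the WT arrays for 5 of the 10 members and all below for 3, against 15% and 21.7% of tested probe sets. The median difference was 0.46 over the 9 tested members and -0.05 over all tested probe sets.

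**Figure D1:**
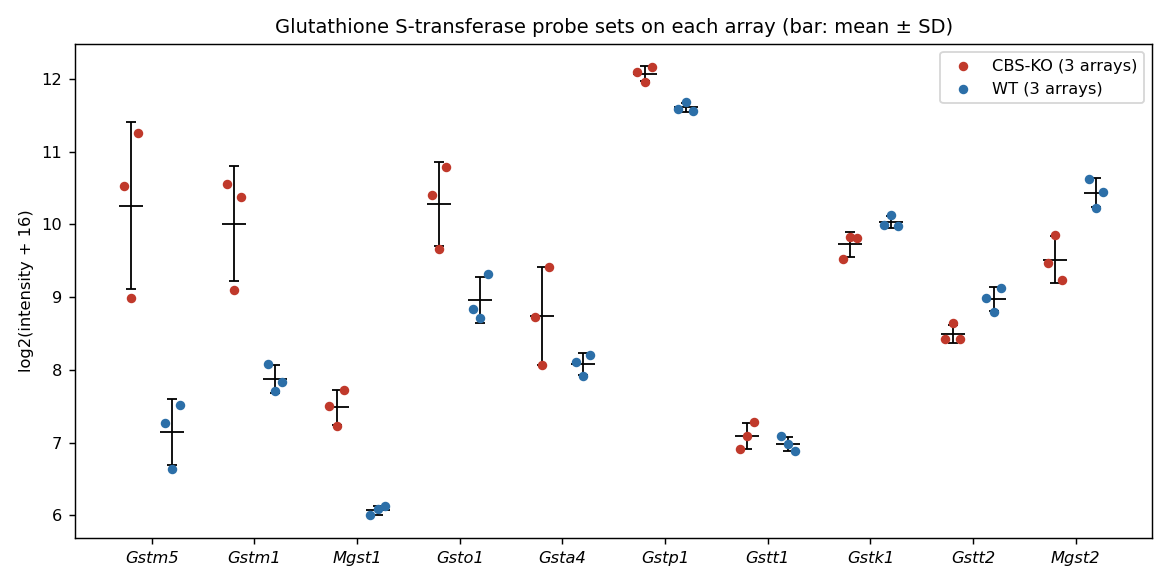
Values of log2(intensity + 16) on the y axis for the probe set of each gene, with a point per array, CBS-KO left and WT right, and bars for the mean ± SD (n = 3 each). The CBS-KO points of Gstm5, Gstm1, Mgst1, Gsto1 and Gstp1 lie above the WT points, and those of Gstk1, Gstt2 and Mgst2 below; heights of different probe sets are not comparable.

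Both mu class members rose, and they had the largest differences of the 10 genes. Mu class enzymes are soluble dimers that conjugate epoxides and other electrophiles. Gstm5 had values of 10.53, 8.99 and 11.25 on CBS-KO arrays 1 to 3, against 7.27, 6.63 and 7.51 on WT arrays 1 to 3. In deposited intensity this was 1463, 494 and 2426 in CBS-KO cells against 138, 83.3 and 167 in WT cells. The groups did not overlap, and CBS-KO 2 lay nearest to WT. The difference was 3.12 (SE 0.56, 95% confidence interval 1.78 to 4.46), or 8.70-fold, with a limma adjusted p of 0.0261. Gstm1 had values of 10.55, 9.10 and 10.38 in CBS-KO cells, against 8.08, 7.71 and 7.83 in WT cells. Again CBS-KO 2 was the lowest CBS-KO array and still lay above every WT array. The difference was 2.14 (SE 0.38, 1.24 to 3.04), or 4.40-fold (limma adjusted p = 0.0250). Within groups, the SD of Gstm5 was 1.15 in CBS-KO and 0.45 in WT cells, and that of Gstm1 was 0.79 in CBS-KO and 0.19 in WT cells.

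Without CBS-KO 1, WT 1, WT 2 or WT 3, neither mu class call held: the limma adjusted p was 0.106, 0.109, 0.118 and 0.0655 for Gstm5 and 0.0925, 0.102, 0.116 and 0.0739 for Gstm1. The differences themselves kept to 2.62 to 4.11 for Gstm5 and 1.87 to 2.59 for Gstm1 over all alternatives.

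The promoters of the mu class pair are shown because these genes moved together, with capitals for matches to TGACNNNGC, a core of the antioxidant response element through which NRF2 acts. The windows run from 250 bases before to 50 bases after the start, 5′ to 3′ on the gene's strand, from RefSeq with build GRCm38.p6, at chr3:107895604-107895903 (plus strand) for Gstm5 and chr3:108017924-108018223 (minus strand) for Gstm1.
Gstm5: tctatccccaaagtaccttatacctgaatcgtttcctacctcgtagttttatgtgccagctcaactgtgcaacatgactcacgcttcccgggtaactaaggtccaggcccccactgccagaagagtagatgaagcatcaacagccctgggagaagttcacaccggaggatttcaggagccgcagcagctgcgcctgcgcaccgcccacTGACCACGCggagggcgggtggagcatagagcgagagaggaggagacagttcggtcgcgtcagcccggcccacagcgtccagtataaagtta
Gstm1: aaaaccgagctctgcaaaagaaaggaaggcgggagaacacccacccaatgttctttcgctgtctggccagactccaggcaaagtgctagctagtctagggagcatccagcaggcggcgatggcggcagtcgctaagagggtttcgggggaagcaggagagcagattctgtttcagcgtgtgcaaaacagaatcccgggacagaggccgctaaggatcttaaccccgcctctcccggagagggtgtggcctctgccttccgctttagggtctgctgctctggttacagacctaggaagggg
The Gstm5 window held 1 match on the plus strand, beginning 42 bases before the start, and neither of the 2 windows listed for Gstm1 held one. Both strands were searched, no other motif was, and 12.4% of all 32851 windows hold a match. In all, 8 members had a window, 10 windows between them, and 2 of these held a match. A match describes letters only.

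Gstm5 and Gstm1 lie in a row of mu class genes on chromosome 3, with no other protein-coding gene between neighbours in the RefSeq table of GRCm38.p6. The order is Gstm5, Gstm7, Gstm6, Gstm3, Gstm2, Gstm1 and Gstm4. Gstm4, next to Gstm1, averaged 9.04 in both groups (difference -0.00, interval -0.35 to 0.35, limma adjusted p = 0.999). Gstm2, on the other side of Gstm1, differed by -0.05 (-0.33 to 0.23, 0.801) and Gstm7, next to Gstm5, by 0.06 (-0.16 to 0.29, 0.709). The intervals of these neighbours therefore lie below those of the mu class pair, although the difference between genes was not itself tested. Gstm3 had 2 probe sets that disagree: 10362511 rose by 1.09 (SE 0.17, limma adjusted p = 0.0188), passing the filter only through its CBS-KO arrays, and 10501218, below the filter, differed by -0.03. Gstm6 lay below the filter with a difference of 0.17. The mu class genes are similar in sequence, and since the probes' sequences were not used here, signal shared between paralogs cannot be told apart.

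**Figure D2:**
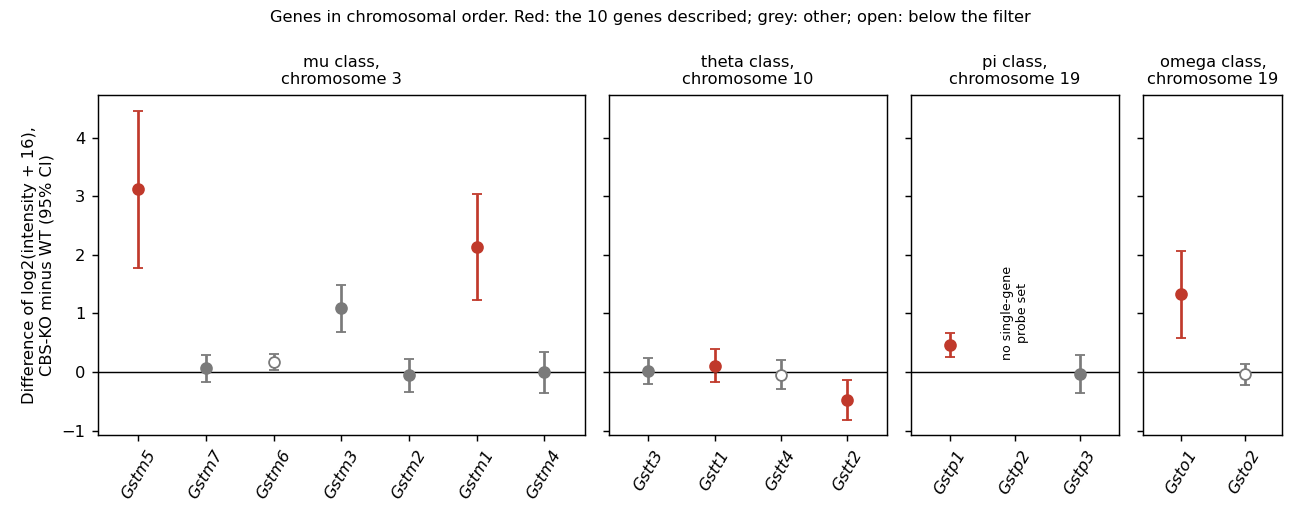
Difference of log2(intensity + 16), CBS-KO minus WT, on the y axis with 95% confidence intervals, for transferase genes in their order along 3 chromosomes (red, the genes described; grey, their neighbours; open, below the filter). Gstm5 and Gstm1 stand at 3.12 and 2.14 while Gstm7, Gstm2 and Gstm4 stand near 0.

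Gsto1, of the omega class, rose. Omega enzymes carry a cysteine in the active site and act mainly as thioltransferases and dehydroascorbate reductases. Gsto1 had values of 10.40, 9.66 and 10.79 in CBS-KO cells, against 8.84, 8.72 and 9.32 in WT cells. No CBS-KO value reached down to the WT range, and CBS-KO 2 and WT 3 were the arrays nearest to each other. The difference was 1.33 (SE 0.31, 0.58 to 2.07), or 2.51-fold (limma adjusted p = 0.0467). This call lay near the threshold and was lost when any array other than CBS-KO 2 was left out, at adjusted p from 0.0751 to 0.169, with a common array median (0.0554), with no filter (0.0789) and under robust estimation (0.0511). Its neighbour on chromosome 19, Gsto2, lay below the filter, at 6.39 in CBS-KO and 6.43 in WT cells.

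Gstp1, of the pi class, rose by little and with a small spread. It conjugates electrophiles and is known to bind the stress kinase JNK. Its values were 12.09, 11.96 and 12.16 in CBS-KO cells and 11.59, 11.68 and 11.56 in WT cells, and the groups were separate. The difference was 0.46 (SE 0.09, 0.25 to 0.67), or 1.38-fold (limma adjusted p = 0.0302). The call was lost without CBS-KO 1 (0.128), CBS-KO 3 (0.0524), WT 1 (0.142), WT 2 (0.112) or WT 3 (0.0842), and the change falls short of 1.5-fold. Another 2 probe sets name Gstp1 together with its near-identical neighbour Gstp2, and they differed by 0.26 (SE 0.17, adjusted p = 0.350) and 0.18 (SE 0.13, 0.395). Gstp3, the next gene along, differed by -0.04 (SE 0.14, 0.889). The Gstp1 call thus rests on 1 of 3 probe sets, and signal from Gstp2 in it cannot be told apart.

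Gsta4, the alpha class enzyme that conjugates 4-hydroxynonenal, a product of lipid peroxidation, had a wide spread between CBS-KO arrays. It had values of 8.73, 8.07 and 9.42 in CBS-KO cells, against 8.11, 7.91 and 8.21 in WT cells. CBS-KO 2 lay inside the WT range and the other 2 CBS-KO arrays above it. The difference was 0.66 (SE 0.33, -0.12 to 1.44, limma adjusted p = 0.222). Without CBS-KO 2 it was 1.0 and passed (adjusted p = 0.0244).

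The theta class enzymes, which use a serine in the active site and are known for acting on small halogenated compounds, showed no call. Gstt1 had values of 6.91, 7.09 and 7.28 in CBS-KO cells and 7.08, 6.97 and 6.89 in WT cells, which overlap (difference 0.11, SE 0.12, limma adjusted p = 0.585). Gstt2 had values of 8.42, 8.64 and 8.43 in CBS-KO cells, all below the 8.99, 8.80 and 9.12 of WT cells. Its difference was -0.47 (SE 0.14, -0.81 to -0.14, adjusted p = 0.0765), and without CBS-KO 2 it passed at -0.55 (adjusted p = 0.0299). Gstk1, the kappa class enzyme of mitochondria and peroxisomes, also had separate groups, with 9.53, 9.83 and 9.81 in CBS-KO cells and 9.998, 10.13 and 9.98 in WT cells. Its difference of -0.31 (SE 0.13, -0.62 to -0.01, adjusted p = 0.156) passed under no alternative, where its adjusted p ran from 0.0738 to 0.423.

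The microsomal members had differences of opposite sign, and neither the fit with the filter nor the one without it called both. Mgst1 protects membranes as a transferase and lipid peroxidase, while Mgst2 can also join glutathione to leukotriene A4 to make leukotriene C4. Mgst1 had values of 7.50, 7.23 and 7.72 in CBS-KO cells, against 6.00, 6.09 and 6.12 in WT cells. The gap between the groups was larger than the range within either, and the difference of 1.41 was 2.67-fold. With no filter on dim probe sets it had an SE of 0.13 and passed (limma adjusted p = 0.0137), but not when CBS-KO 1 (0.0694), WT 1 (0.0964) or WT 2 (0.101) was also left out. Mgst2 had values of 9.46, 9.86 and 9.23 in CBS-KO cells, against 10.63, 10.23 and 10.45 in WT cells. It fell in CBS-KO cells by 0.92 on the log2 scale (SE 0.19, adjusted p = 0.0369), that is, WT over CBS-KO was 1.89-fold. This call was lost when any array other than CBS-KO 2 was left out, at adjusted p from 0.0567 to 0.155, and with no filter (0.0622).

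The promoters of Mgst1 and Mgst2 are shown as those of the membrane enzymes with opposite differences, in the same windows and with the same capitals, at chr6:138140277-138140576 (plus strand, the first of 2 windows for Mgst1) and chr3:51660929-51661228 (plus strand, Mgst2) of GRCm38.p6.
Mgst1: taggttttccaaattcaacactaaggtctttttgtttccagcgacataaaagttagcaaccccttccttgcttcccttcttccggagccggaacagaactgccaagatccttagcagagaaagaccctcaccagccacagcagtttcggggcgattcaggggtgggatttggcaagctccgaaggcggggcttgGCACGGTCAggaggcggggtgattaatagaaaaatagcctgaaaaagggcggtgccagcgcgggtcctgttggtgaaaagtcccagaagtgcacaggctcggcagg
Mgst2: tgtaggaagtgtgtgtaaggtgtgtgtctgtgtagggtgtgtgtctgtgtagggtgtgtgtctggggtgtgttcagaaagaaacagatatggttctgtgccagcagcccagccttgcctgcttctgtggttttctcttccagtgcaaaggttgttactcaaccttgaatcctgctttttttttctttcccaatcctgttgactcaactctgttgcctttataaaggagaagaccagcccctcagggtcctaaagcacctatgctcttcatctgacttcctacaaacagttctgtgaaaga
The Mgst1 window held 1 match, read on the minus strand and beginning 56 bases before the start. The Mgst2 window held none of these letters.

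**Figure D3:**
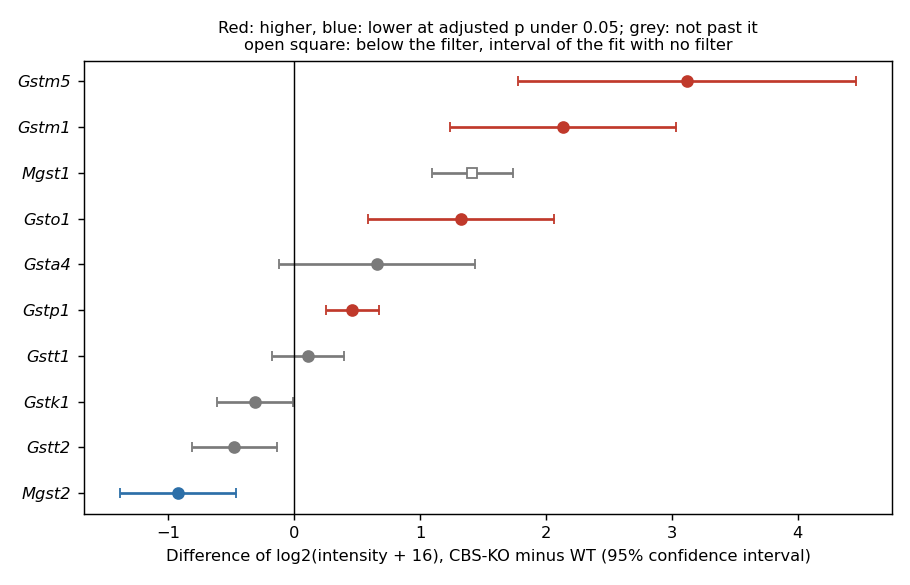
Difference of log2(intensity + 16), CBS-KO minus WT, on the x axis with 95% confidence intervals for each of the 10 genes. The differences run from 3.12 for Gstm5 to -0.92 for Mgst2, and the open square marks Mgst1, below the filter, at 1.41.

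The CBS-KO arrays differed among themselves in a shared way. For 9 of the 10 members the smallest shift from the WT mean was in CBS-KO 2, as it was for 50.9% of all tested probe sets. In CBS-KO 1 to 3 the shift of Gstm5 was 3.39, 1.86 and 4.11, that of Gsto1 1.44, 0.70 and 1.84, and that of Gsta4 0.65, -0.01 and 1.34. Gstm1 had shifts of 2.68, 1.23 and 2.50, with CBS-KO 1 and not CBS-KO 3 the farthest from WT. The erythroid markers averaged 3.54, 2.54 and 3.88 above WT on the same arrays and the mast cell and basophil markers 1.94, 0.53 and 1.85, with CBS-KO 2 lowest in both. The neutrophil markers averaged 3.48, 3.16 and 3.16, and the monocyte and macrophage markers 1.67, 2.21 and 1.67, without that order. Mgst2 had shifts of -0.98, -0.58 and -1.21. The CD4 T cell marker means were -0.72, -0.43 and -1.11, with the arrays in the same order. How many of all tested probe sets share that full order was not counted. As 50.9% of them had their smallest shift in CBS-KO 2, likeness in order to any marker list is only a description. Gstt2 (-0.55, -0.33 and -0.54) and Gstk1 (-0.50, -0.21 and -0.22) also lay below WT but had CBS-KO 1 farthest from it.

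Summed over the listed genes, erythroid marker intensity was 16144 to 39051 on CBS-KO arrays against 1847 to 3569 on WT arrays. The neutrophil sum was 28588 to 39866 in CBS-KO and 1755 to 3543 in WT cells. For monocytes and macrophages it was 20294 to 28870.4 in CBS-KO and 5806 to 9454 in WT cells, and for mast cells and basophils 3284 to 7429 in CBS-KO and 1753 to 2445 in WT cells. In each of these lists every CBS-KO array lay above every WT array. B cell markers summed to 9602 to 26357 in CBS-KO and 9699 to 13583 in WT cells. Of the 9 tested B cell genes, 1 was called, as higher, beside 6.62% of all tested genes. Platelet markers summed to 2689.7 to 3979 in CBS-KO and 3366 to 4196 in WT cells, so both of these lists overlapped between the groups. Of the 5 tested platelet genes, 1 was called higher and 1 lower, beside 6.62% and 4.45% of all tested genes. No marker had an intensity of 0 on any array. The part of these other cells in the transferase differences was not tested.

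**Figure D4:**
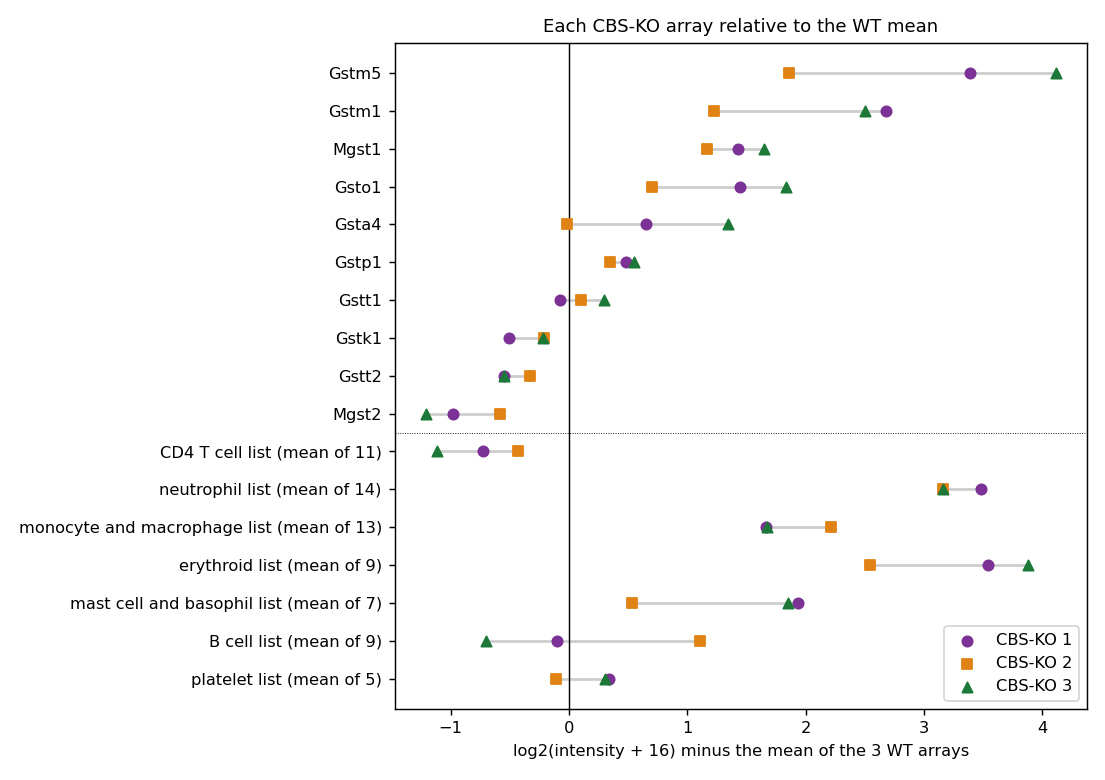
Each CBS-KO array relative to the mean of the 3 WT arrays, in log2(intensity + 16) on the x axis, for the 10 genes and for the means of the cell type marker lists. CBS-KO 2 (square) lies nearest to 0 for 9 of the 10 genes and is the lowest CBS-KO array for the erythroid list, at 2.54.

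With the presence of Y-linked signal as a model term, the genotype estimate is the difference of CBS-KO 3 alone from the WT mean, since that array lacks the signal as the WT arrays do. Its error comes from the spread among the WT arrays and between CBS-KO 1 and 2, so CBS-KO 3 is assumed to vary like them. CBS-KO 3 was also the array farthest from WT for Gstm5, Gsto1, Gstp1, Gsta4 and Mgst2, so these values do not separate sex from that array. The differences were 4.11 for Gstm5 (limma adjusted p = 0.0150), 2.50 for Gstm1 (0.0232), 1.84 for Gsto1 (0.0205), 0.55 for Gstp1 (0.0246) and -1.21 for Mgst2 (0.0199). That of Gsta4 was 1.34 (0.0246). Over the whole table this fit called 4976 probe sets, against 1995 without the term.

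For each called member, the genes closest to it in pattern were found among 12775 other genes, as those with the smallest root mean square difference from it over the 6 arrays, each value taken relative to the WT mean. For Gstm5 they were Fads2 (a fatty acid desaturase, root mean square difference 0.19), Epb42 (a protein of the red cell membrane skeleton, 0.23) and Abcb4 (a phospholipid transporter, 0.25). Epb42 is also 1 of the erythroid markers used here. Gstm1 was closest to Parvb (0.16), an adaptor of focal adhesions, Cited4 (0.17), a transcriptional coactivator, and Bex6 (0.18). Gsto1 was closest to Tm7sf3 (0.068), to Dach1 (0.072), a transcription factor, and to Gp9 (0.072), a platelet glycoprotein that is also among the platelet markers. Gstp1 was closest to the kinase gene Mapkapk2 (0.028), to Rffl (0.035) and to Far1 (0.045), which makes fatty alcohols. Mgst2 was closest to Tagap (0.081), Xylt2 (0.090) and Sh3pxd2a (0.092), whose differences were -0.83, -0.91 and -0.88. Likeness over 6 arrays in 2 groups describes these arrays only.

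Among the other transferases and their membrane relatives, 3 of 13 tested genes rose, against 6.62% of all 12776 tested genes called higher, and 0 fell, against 4.45% called lower. At an unadjusted limma p under 0.05 the counts were 5 higher and 0 lower, where 17.1% of all tested genes were higher and 16.3% lower. The median difference was 0.21 beside -0.01 over all tested genes. Gstm3, described above, was 1 of the 3 and passed the filter only through its CBS-KO arrays, so the count is a description. The others belong to the membrane family of Mgst1 and Mgst2. Alox5ap, which hands arachidonic acid to 5-lipoxygenase at the start of leukotriene synthesis and is abundant in myeloid cells, had values of 11.31, 11.45 and 10.72 in CBS-KO cells and 7.97, 7.84 and 8.91 in WT cells. It rose by 2.92 (SE 0.33, limma adjusted p = 0.00937). Mgst3, a further microsomal transferase, had values of 9.61, 8.70 and 10.17 in CBS-KO cells and 7.53, 7.36 and 7.51 in WT cells, and rose by 2.02 (SE 0.35, adjusted p = 0.0242). Both pairs of groups were separate, with CBS-KO 3 the lowest CBS-KO array for Alox5ap and the highest for Mgst3. Ltc4s, the main leukotriene C4 synthase, differed by -0.02 (SE 0.11, adjusted p = 0.928). The calls of Alox5ap, Gstm3 and Mgst3 were each lost without CBS-KO 1, WT 1 or WT 2, when the adjusted p lay between 0.0534 and 0.112, and that of Mgst3 also without WT 3 (0.0698).

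Of 18 tested genes that make and recycle glutathione, 7 rose and 0 fell, beside 6.62% and 4.45% of all tested genes, and the median difference was 0.64. At an unadjusted limma p under 0.05, 13 were higher and 1 lower, beside 17.1% and 16.3% of all tested genes. Gsr, the reductase that returns oxidised glutathione to its reduced form, had values of 11.52, 11.20 and 11.60 in CBS-KO cells, against 9.79, 10.02 and 9.97 in WT cells. It rose by 1.51 (SE 0.14, limma adjusted p = 0.00580), the groups were far apart, and its call held under every alternative. Gpx1, the peroxidase that spends glutathione on hydrogen peroxide and is abundant in red cells, rose by 1.02 (SE 0.12), and Glo1, the glyoxalase that uses it to clear methylglyoxal, by 1.38 (SE 0.20). Gclc, the catalytic subunit of the enzyme that limits glutathione synthesis, rose by 0.88 (SE 0.17), Glrx, a glutaredoxin, by 0.58 (SE 0.11) and Slc3a2, the heavy chain of several amino acid transporters, by 0.52 (SE 0.08). Gpx1, Glo1, Gclc, Glrx and Slc3a2 each lost their call without CBS-KO 1, WT 1 or WT 2, at adjusted p between 0.0534 and 0.140, and the list then had 1 call. Without WT 3, Glo1 (0.0519), Gclc (0.0832) and Glrx (0.0769) were lost too, and with no filter Gclc (0.0561).

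Downstream, 2 of 12 tested genes of conjugate export and mercapturate formation rose and 0 fell, beside 6.62% and 4.45% of all tested genes, and the median difference was 0.29. At an unadjusted limma p under 0.05, 4 were higher and 2 lower, beside 17.1% and 16.3%. The called genes were Abcc3, an exporter of organic anions and conjugates (1.36, SE 0.26, limma adjusted p = 0.0310), and Anpep, an aminopeptidase of the cell surface that myeloid cells also carry (1.67, SE 0.35, 0.0367). Both had their highest value in CBS-KO 2, at 9.30 and 9.44, unlike the mu class pair. Abcc1, the exporter best known for glutathione conjugates and leukotriene C4, differed by 0.20 (adjusted p = 0.338). Lower at the unadjusted threshold were Ggt5 (-0.93, SE 0.24, limma adjusted p = 0.0541) and Ggt7 (-0.39, 0.108). Higher at it without a call were Abcg2 (1.44, 0.0785) and Lap3 (0.93, 0.101). With a common array median, a filter at the 60th percentile, only probe sets naming 1 gene, or without CBS-KO 2, 1 gene was called lower. Abcc3 and Anpep were not called without CBS-KO 1, WT 1 or WT 2 (adjusted p from 0.0708 to 0.150), with no filter, or with the Y-linked term, and Abcc3 was lost also without CBS-KO 3 (0.0521) and Anpep without WT 3 (0.0745).

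Of 19 tested NRF2 regulators and target enzymes, 3 rose and 0 fell, beside 6.62% and 4.45% of all tested genes, and the median difference was 0.05. At an unadjusted limma p under 0.05, 6 were higher and 3 lower, beside 17.1% and 16.3%. Nqo1, a quinone reductase and classical target of NRF2, had values of 9.17, 7.87 and 9.91 in CBS-KO cells and 6.70, 6.35 and 6.97 in WT cells. It rose by 2.31 (SE 0.49, limma adjusted p = 0.0379), and as for Gstm5 the lowest CBS-KO value was in CBS-KO 2. Nqo1 passed the filter only through its CBS-KO arrays, so the count of called genes in this list is a description. Hmox1, the haem-degrading oxygenase that macrophages also express strongly, rose by 2.21 (SE 0.29, adjusted p = 0.0138), and Mafg, a small Maf partner of NRF2, by 0.68 (SE 0.12, 0.0259). None of the other 16 genes passed in this fit. Txnrd1 differed by 0.05 (adjusted p = 0.914), Srxn1 by 0.26 (0.289) and Prdx1 by -0.03 (0.944), and Nfe2l2, which encodes NRF2, by 0.02 (0.961). Others lay farther from 0. Those lower at the unadjusted threshold were Bach2 (-1.07, limma adjusted p = 0.0508), Ephx1 (-0.73, 0.0807) and Cbr1 (-0.55, 0.115). Those higher at it without a call were Tkt (0.73, 0.0638), Taldo1 (0.68, 0.0721) and Txn1 (0.20, 0.0711). Mafg and Nqo1 lost their calls without CBS-KO 1, WT 1, WT 2 or WT 3, Nqo1 also with no filter (0.0668), and Hmox1 without WT 1 or WT 2.

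**Figure D5:**
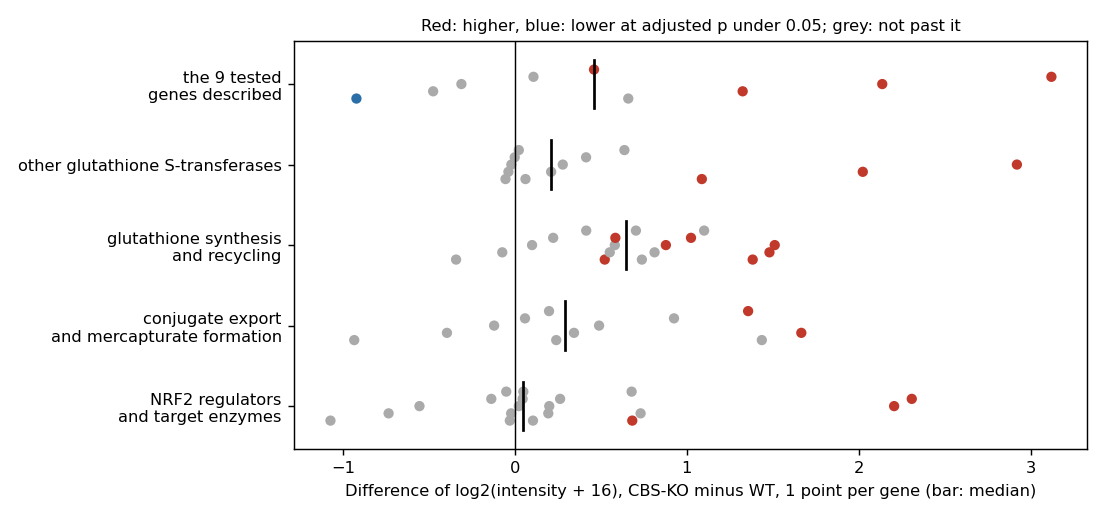
Difference of log2(intensity + 16), CBS-KO minus WT, on the x axis with 1 point per tested gene and a bar at each median, for the 9 tested transferases described and 4 lists of related genes. Called genes are red (higher) or blue (lower), and the single blue point is Mgst2 at -0.92.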

How the data were processed

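Gene expression was measured on 1 Affymetrix array per sample in CD4+ T cells of 3 CBS-KO and 3 WT samples. Per the labels' protocols, biotinylated cRNA was made from 6 ug of total RNA. Each deposited value is the authors' intensity of 1 probe set, taken to be linear from the values, which are positive, not whole and have similar array medians. The sources used here do not give the background correction, normalization, summary method or genome build, and the number of arrays limits precision. Gene symbols came from the platform annotation, in which 21640 probe sets named 1 gene, 1321 several and 11799 none; promoters and gene order came from RefSeq tables of GRCm38.p6.

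Intensities were taken as log2(intensity + 16). The test covered probe sets whose 6-array mean exceeded the 40th percentile. The groups were compared with limma 3.58.1 (R 4.3.3, eBayes with a trend, two-sided), tested on simulated data, with Benjamini-Hochberg adjustment over all 20856 tested probe sets and a threshold of 0.05. Lists used the brightest tested probe set of each gene. Of each list of related genes, called genes were named, at most the 6 of smallest p, and 3 genes were named as closest in pattern to each called member. Genes named beside these (Gstm2, Gstm4, Gstm6, Gstm7, Gsto2, Gstp2, Gstp3, Ltc4s, Abcc1, Ggt5, Ggt7, Abcg2, Lap3, Txnrd1, Srxn1, Prdx1, Nfe2l2, Bach2, Ephx1, Cbr1, Tkt, Taldo1 and Txn1) were added as background after their values were seen. Single cell type markers were also named after their values were seen. The members, lists and alternatives were chosen with earlier results of these data known. Plots used matplotlib 3.10.9 (Python 3.11.15).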

Additional observations from a re-analysis of the deposited data

How the results depend on the processing

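Over 18 alternative settings and a further set for Mgst1 added after the data were seen, 131 of 168 member values kept their direction and side of the threshold, 30 lost the call, 7 gained it and 0 called values changed sign. Only the 5 members called in the main fit had a call to lose, so all 30 losses fell among them. Of the 7 gains, 4 were of Mgst1, which the main fit did not test. Of the 18 settings, Gstm5 and Gstm1 were each called in 14, Gstp1 and Mgst2 each in 11 and Gsto1 in 10. The calls depended on single arrays. Leaving out 1 array at a time, limma called 73 to 6427 of all probe sets, against 1995, and 0 to 7 members, against 5. It called 0 members without CBS-KO 1, WT 1, WT 2 or WT 3, where 5, 6, 6 and 6 members and 21.6%, 20.5%, 20.9% and 26.4% of all tested probe sets had an unadjusted p under 0.05, 2 without CBS-KO 3 and 7 without CBS-KO 2. The lists had 0 to 5 calls (other transferases, against 3), 1 to 13 (glutathione synthesis and recycling, against 7), 0 to 6 (conjugate export, against 2) and 0 to 8 (NRF2 genes, against 3). Where a list had 0 calls with an array left out, 3 to 8 of its genes had an unadjusted p under 0.05, beside 20.5% to 21.6% of all tested probe sets. With no filter, when more probe sets entered the adjustment, 1126 probe sets and 0 export genes passed, 7 export genes and 22.9% of probe sets having an unadjusted p under 0.05. With the Y-linked term there were 4976 probe sets, 11 glutathione synthesis genes, 5 export genes and 8 NRF2 genes, and with probe sets that name 1 gene, 5 NRF2 genes. With the replicate number as a replicate block, 3 members were called, Gstp1 (adjusted p = 0.0595) and Mgst2 (0.0580) being lost, and 2093 probe sets passed. The numbers are not known to pair the samples: deviations of same-numbered arrays correlated at 0.063, 0.16 and 0.11, although each CBS-KO array correlated best with its own number in 3 of 3 cases. The cause of these changes was not tested. Array background is not given, so differences from dim WT values, as for Mgst1, depend on the floor.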
